A study of Mus musculus with 10 samples.

Results

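Tescalcin, the calcineurin subunits and the NFAT transcription factors are 8 of the 18193 genes measured, and were followed through 27 of the 45037 probe sets tested. The members are all probe sets whose array annotation names 1 of 8 genes and no other gene. Tesc has 2 of them, Ppp3ca 3, Ppp3cb 5, Ppp3r1 2, Rcan1 2, Nfatc1 5, Nfatc2 6 and Nfatc3 2. A further probe set, 1450368_a_at, names Ppp3r1 together with Wdr92 and is not described. Tesc had been picked because it was lower in homozygous knockout arrays of these same data, and Ppp3ca because it was higher in heterozygous ones. Those differences are therefore given as descriptions, and nothing is supported with them, also where they enter a count over all members.

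CD4+CD25+ cells, the T cell fraction rich in regulatory T cells, were prepared with an isolation kit from the combined lymph nodes of BALB/c mice aged 17 to 19 days, and were neither treated nor cultured. SHP-1 is the tyrosine phosphatase encoded by Ptpn6, which dampens antigen receptor signalling. The WT group (4 arrays) carried no SHP-1 knockout allele, the he group (3 arrays) carried 1 copy, and the me group (3 arrays) was homozygous and had the motheaten phenotype, an inflammatory disease of young mice. The labels name no cell type to which the knockout was restricted, and the me cells came from animals with that phenotype. The arrays are called biological replicates, with no word on whether animals were pooled, so every p-value below measures the spread between these arrays. Values are probe set intensities, given here as log2(intensity + 32) after quantile normalisation. In bulk RNA, fewer cells of a type and less RNA per cell cannot be told apart.

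Calcineurin is a calcium- and calmodulin-dependent phosphatase made of a catalytic A subunit (Ppp3ca or Ppp3cb in T cells) and the regulatory B subunit Ppp3r1. After T cell receptor engagement, calcium entry activates it, and it dephosphorylates NFAT proteins, which then enter the nucleus and drive cytokine and activation genes, among them the calcineurin inhibitor Rcan1. Tescalcin, the product of Tesc, is an EF-hand calcium-binding protein of the calcineurin B homologous family, known for its part in blood cell differentiation.

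The promoters of Tesc and Rcan1 are shown because Rcan1 is a standard readout of calcineurin and NFAT activity and Tesc is the gene that led to this set. RefSeq promoter windows of the GRCm38.p6 build were supplied for 6 of the 8 genes, with 9 start sites. Each window below holds the 250 bases before a start site, 5′ to 3′ on the gene's strand. Capitals mark the NFAT core motif GGAAA, or its reverse complement TTTCC. Tesc lies at chr5:118027493-118027742 on the plus strand. The first Rcan1 start lies at chr16:92466170-92466419 and the internal start at chr16:92400079-92400328, both on the minus strand.
Tesc: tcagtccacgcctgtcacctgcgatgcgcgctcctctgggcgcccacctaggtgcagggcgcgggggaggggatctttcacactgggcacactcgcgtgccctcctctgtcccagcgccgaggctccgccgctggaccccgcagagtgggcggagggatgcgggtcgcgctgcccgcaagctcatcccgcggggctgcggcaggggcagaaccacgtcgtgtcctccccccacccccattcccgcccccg
Rcan1 first start: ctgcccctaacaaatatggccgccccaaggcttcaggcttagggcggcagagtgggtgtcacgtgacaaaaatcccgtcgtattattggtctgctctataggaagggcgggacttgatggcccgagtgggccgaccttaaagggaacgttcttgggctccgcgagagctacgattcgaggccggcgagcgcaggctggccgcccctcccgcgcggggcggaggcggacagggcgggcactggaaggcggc
Rcan1 internal start: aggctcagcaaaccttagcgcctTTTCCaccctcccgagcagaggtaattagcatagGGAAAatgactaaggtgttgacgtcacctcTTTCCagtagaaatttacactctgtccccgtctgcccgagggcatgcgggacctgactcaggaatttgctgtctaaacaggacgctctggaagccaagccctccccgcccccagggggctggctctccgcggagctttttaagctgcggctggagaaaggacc
The internal Rcan1 window held 3 matches, a number reached by 6.39% of the 32851 windows in the table, and at least 1 match was found in 55.6% of them. The Tesc window and the first Rcan1 window held 0. The Ppp3cb window also held 3, the Nfatc2 windows 3 and 1, the Nfatc3 windows 1 and 0, and the Ppp3r1 window 0. These matches are letters in a window and describe no binding.

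Ptpn6 followed the labels, and the arrays fell into 2 sets that the genotypes do not explain. At Ptpn6 probe set 1460188_at, me minus WT was -1.09 ± 0.14 (log2, SE; limma adjusted p = 1, or 0.09 with the block described next), with he in between, and neither of its probe sets overlapped between any pair of genotypes. All 9 measured regulatory T cell markers and all 7 measured T cell markers lay above the median level of all probe sets. The 6 measured gamma delta T cell entries did too, so this level does not set regulatory T cells apart. By correlation of all values, WT 1, WT 2, he 1, me 1 and me 3 formed set A, and WT 3, WT 4, he 2, he 3 and me 2 formed set B. Correlations ran from 0.97 to 0.996 within sets and from 0.854 to 0.944 between them. The labels name no batch, so differences are also given with the set as a block and, for some, within either set. Of the he arrays set A holds he 1 alone, and of the me arrays set B holds me 2 alone. Differences of he within set A and of me within set B therefore rest on that 1 array. The Gapdh 3′ to 5′ signal ratio, a sign of RNA length, was 7.84 to 9.53 in WT, 7.88 to 9.71 in he and 9.92 to 13.8 in me. The me arrays did not overlap the others in it, so a fit with this ratio cannot fully separate it from genotype. The same ratio of beta-actin was not raised in me. It was 11.99 to 17.71 in WT, 13.88 to 16.51 in he and 12.15 to 13.95 in me. Sex was called from the signals of Xist and Eif2s3y: by this the he arrays were all female and the other groups were mixed.

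Tesc was lower in every me array than in every WT and he array at its brighter probe set. At 1418744_s_at the values were 11.49, 11.63, 11.27 and 11.17 (WT), 11.39, 11.01 and 11.04 (he) and 10.82, 10.61 and 10.89 (me). The highest me array lay below the lowest he array, while he and WT overlapped. In the deposited intensities the same arrays read 4242, 3728, 1915 and 2039 (WT), 3826, 1581 and 1410 (he) and 2403, 1278 and 1803 (me). Before normalisation and without regard to array set, the me and WT ranges therefore overlap: me 1 read above WT 3 and WT 4, which belong to the other set.

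The group means of Tesc at 1418744_s_at were 11.39 ± 0.21 (SD, n = 4) in WT, 11.14 ± 0.21 (SD, n = 3) in he and 10.77 ± 0.15 (SD, n = 3) in me. Me minus WT came to -0.62 ± 0.14 (log2, SE), a level 1.53 times lower. With array set as a block it was -0.67 ± 0.05, and it was -0.70 within set A and -0.61 within set B. Leaving out any 1 array gave differences between -0.69 and -0.53, and the Gapdh ratio as a covariate gave -0.82. This is the contrast for which Tesc was chosen. The me minus he difference, which shares the me arrays with it, was -0.37 ± 0.15, and -0.48 ± 0.06 with the block.

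Between he and WT, a contrast not used to choose it, Tesc did not pass the test. The difference at 1418744_s_at was -0.24 ± 0.14 (log2, SE; limma with Benjamini-Hochberg adjustment over all probe sets, adjusted p = 1), with a 95% interval from -0.56 to 0.07. With the set as a block it was -0.19 ± 0.05 (limma adjusted p = 0.9999), with -0.17 within set A and -0.19 within set B. Centring arrays on their medians in place of quantile normalisation gave -0.47.

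The dimmer Tesc probe set, 1418743_a_at, had overlapping genotypes. Its values were 8.85, 8.63, 8.22 and 8.32 (WT), 8.84, 8.26 and 8.31 (he) and 8.48, 7.91 and 8.43 (me). Me 2 alone lay below all other arrays. There me minus WT was -0.24 ± 0.21 (log2, SE), and -0.32 ± 0.06 with array set as a block, -0.29 within set A and -0.37 within set B. The he minus WT difference was -0.04 ± 0.21 (limma adjusted p = 1), and 0.05 ± 0.06 with the block. Over the 10 arrays the 2 Tesc probe sets correlated at r = 0.736, and at 0.79 after set means were removed, as a description of arrays that share genotypes.

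**Figure D1:**
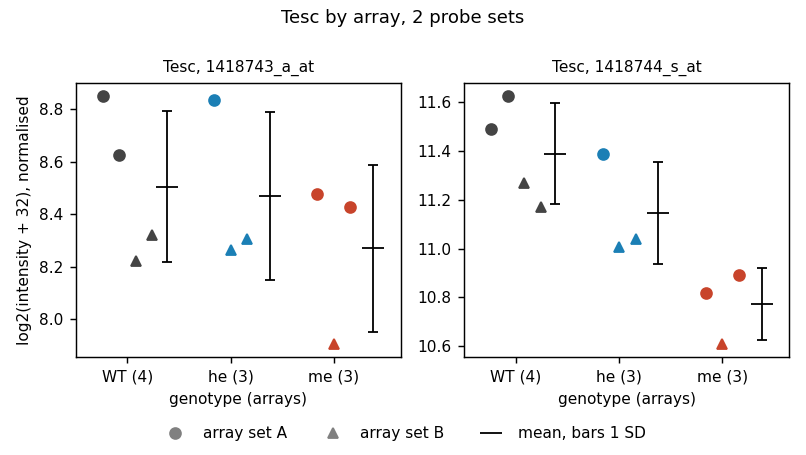
Tesc by array at its 2 probe sets, as log2(intensity + 32) after quantile normalisation, for WT (4 arrays), he (3) and me (3). Circles are set A, triangles set B, and bars show the mean with 1 SD. At 1418744_s_at the me arrays lie between 10.61 and 10.89, below the lowest he array at 11.01.

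Markers of other cells also differed in the me arrays, and their part in the Tesc difference was not tested. The summed normalised intensity of 6 measured gamma delta T cell entries was 2888 to 4306 in WT, 2464 to 5276 in he and 1881 to 2602 in me. Trgv4 and Tcrg-V4, names of the same probe set, were both counted in these sums. The 9 measured plasma cell entries summed to 5347 to 7231 in WT, 5734 to 7247 in he and 7337 to 18665 in me. The lowest me sum was in me 2 and the highest in me 3. Jchain and Igj, names of the same probe set, were both counted in the plasma cell sums. The 10 macrophage and monocyte markers summed to 2445 to 3441 (WT), 2747 to 4639 (he) and 2708 to 5415 (me), and the 10 neutrophil markers to 1528 to 1761, 1539 to 1918 and 1562 to 2170, both highest in me 2. The 10 CD8 and NK cell markers summed to 4406 to 7799 (WT), 5434 to 9261 (he) and 5775 to 9324 (me), and the 10 B cell markers to 1576 to 2110, 1601 to 2029 and 1792 to 2193, with overlap between groups in all 4 lists. The 7 platelet and megakaryocyte markers, cells in which Tesc is known, summed to 1107 to 1208 in WT, 1090 to 1227 in he and 1104 to 1158 in me, with overlap between groups. Below the median level of all probe sets lay 4 of these 7 markers and 5 of the 10 neutrophil markers. The same held for 4 of the B cell and 4 of the CD8 and NK cell markers, so these sums include low signals. The 9 regulatory T cell markers summed to 15230 to 17937 in WT, 16129 to 19086 in he and 17362 to 20773 in me.

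Of the relatives of tescalcin, Chp2 was measured alone, at 1431130_at, and was dim. Its mean was 7.12 ± 0.06 (SD, n = 4) in WT and 7.11 ± 0.03 (SD, n = 3) in me, below the median of 7.64 over all probe sets. Chp1 is named only by probe sets that name several genes.

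The 3 probe sets of Ppp3ca, the catalytic subunit calcineurin A alpha, did not give 1 pattern. At 1452056_s_at the values were 9.20, 9.16, 9.05 and 9.28 (WT), 9.47, 9.40 and 9.43 (he) and 9.33, 9.25 and 9.06 (me). All he arrays lay above all WT and me arrays, which overlapped each other. The he minus WT difference, for which the gene was chosen, was 0.26 ± 0.08 (log2, SE), or 1.20-fold, and 0.29 within set A and 0.24 within set B. It was 0.15 when arrays were centred on their medians. At this probe set me minus WT was 0.04 ± 0.08 (limma adjusted p = 1), with a 95% interval from -0.15 to 0.22.

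At 1438478_a_at it was the me arrays of Ppp3ca that stood apart. The values were 8.81, 8.86, 8.95 and 8.88 (WT), 8.80, 8.95 and 8.97 (he) and 8.75, 8.54 and 8.46 (me). Every me array lay below every WT and he array and me 1 lay only just below he 1. Me minus WT was -0.29 ± 0.08 (log2, SE; limma adjusted p = 1) and -0.28 ± 0.08 with the set as a block (adjusted p = 0.962), so it did not pass over all probe sets. Taking the Gapdh ratio as a covariate gave -0.18. The he minus WT difference was 0.03 ± 0.08 (adjusted p = 1).

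The third Ppp3ca probe set, 1426401_at, followed the array sets. Its values were 9.17, 9.08, 8.20 and 8.55 (WT), 9.17, 8.45 and 8.48 (he) and 9.30, 8.15 and 8.86 (me). All set A arrays lay above all set B arrays, with a set B minus set A difference of -0.75. Its me minus WT difference was 0.02 ± 0.33 and its he minus WT difference -0.05 ± 0.33 (log2, SE). Once set means were removed, 1426401_at correlated at r = 0.661 with 1438478_a_at and at 0.697 with 1452056_s_at over the 10 arrays, while the latter 2 correlated at 0.342. The files do not say which transcript of Ppp3ca each probe set reads.

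**Figure D2:**
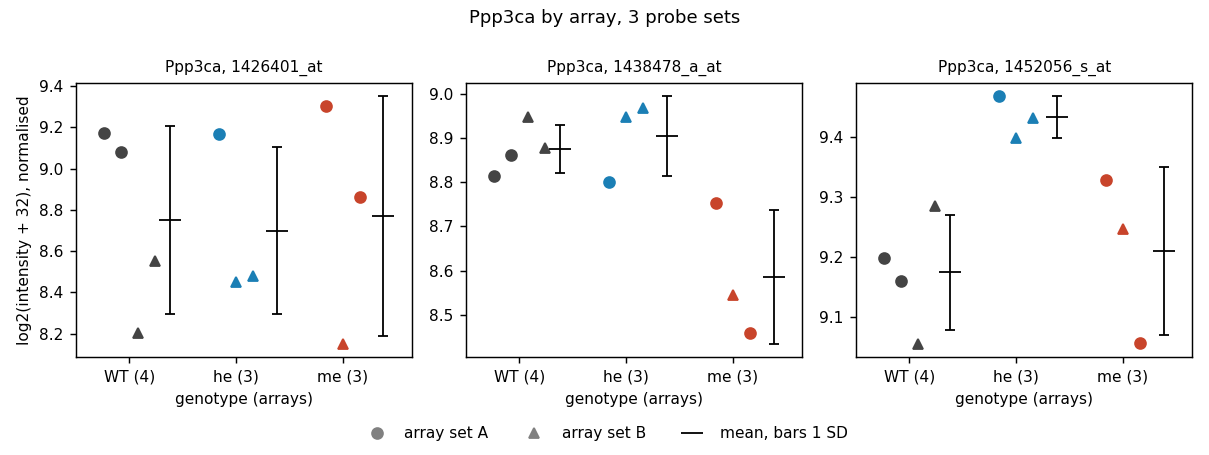
Ppp3ca by array at its 3 probe sets, as log2(intensity + 32) after quantile normalisation. Circles are set A, triangles set B, and bars show the mean with 1 SD for WT (4 arrays), he (3) and me (3). The he arrays are highest at 1452056_s_at, the me arrays are lowest at 1438478_a_at, and 1426401_at separates the array sets.

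Ppp3cb, the catalytic subunit calcineurin A beta, showed no genotype difference beyond the spread between arrays at any of its 5 probe sets. At its brightest, 1428473_at, the values were 10.32, 10.18, 9.84 and 9.84 (WT), 10.29, 9.81 and 9.79 (he) and 10.26, 9.79 and 10.21 (me). Each genotype spans the same levels, with the set A arrays high and the set B arrays low. Over the 5 Ppp3cb probe sets me minus WT ran from -0.08 to 0.07, and from -0.10 to 0.03 with array set as a block. None passed limma's adjusted test. At 1428473_at the blocked difference was -0.03 ± 0.05, with a 95% interval from -0.14 to 0.08.

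The 2 probe sets of Ppp3r1, the regulatory calcineurin B subunit, moved against each other across array sets. At 1433591_at the values were 9.09, 8.86, 10.26 and 10.36 (WT), 8.996, 10.07 and 10.26 (he) and 9.17, 10.22 and 9.51 (me). At 1421786_at they were 8.15, 8.37, 7.75 and 7.86 (WT), 8.48, 8.09 and 7.64 (he) and 8.29, 7.82 and 8.24 (me). Set B minus set A was 1.11 at the first and -0.47 at the second, with no overlap between sets at either. Their correlation over the 10 arrays was -0.904, and -0.474 after set means were removed. Neither differed between genotypes by the adjusted test: me minus WT was -0.01 ± 0.47 and 0.08 ± 0.22 without the block, and 0.18 ± 0.12 and 0.00 ± 0.11 with it.

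Rcan1, which inhibits calcineurin and is itself induced by NFAT from the internal start shown above, did not differ between genotypes beyond the spread between arrays. At 1416600_a_at the values were 8.36, 8.28, 7.74 and 7.85 (WT), 8.38, 7.79 and 7.54 (he) and 8.30, 7.64 and 8.15 (me). All set A arrays lay above all set B arrays, whatever the genotype, with set B minus set A at -0.58. Me minus WT was -0.03 ± 0.25 (log2, SE; limma adjusted p = 1). With array set as a block it was -0.13 ± 0.08 (adjusted p = 0.989), with a 95% interval from -0.30 to 0.05. The other probe set, 1416601_a_at, stayed between 7.31 and 7.40 in all 10 arrays, below the median of all probe sets, and is too dim to add to this. Neither probe set is tied by the files to the first or the internal start.

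Nfatc1, the NFAT member that is itself induced on T cell activation, had its me arrays above all others at 1 of its 5 probe sets, though the difference did not pass the adjusted test. At 1417621_at the values were 8.58, 8.67, 8.46 and 8.39 (WT), 8.49, 8.48 and 8.52 (he) and 8.82, 8.79 and 8.93 (me). The lowest me array was above the highest array of the other groups, and WT and he overlapped. Me minus WT was 0.32 ± 0.08 (log2, SE; limma adjusted p = 1), or 1.25-fold. With the set as a block it was 0.30 ± 0.06 (adjusted p = 0.654), with 0.25 within set A and 0.36 within set B. The me minus he difference was 0.35 ± 0.08 and he minus WT was -0.03 ± 0.08, with adjusted p = 0.9999 and 1.

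The other Nfatc1 probe sets had differences of the same sign and smaller size against their errors. At 1447085_s_at the values were 8.64, 8.83, 8.72 and 8.92 (WT), 8.62, 8.77 and 8.79 (he) and 8.72, 9.06 and 8.98 (me). Here me 1 lay within WT, and me minus WT was 0.14 ± 0.10, or 0.17 ± 0.08 with the block. At the brightest Nfatc1 probe set, 1428479_at, me minus WT was 0.08 ± 0.15 and me minus he 0.00 ± 0.16. Over all 5 probe sets me minus WT ran from 0.08 to 0.32, and from 0.06 to 0.30 with the block. When the Gapdh ratio was a covariate without the block, 1425761_a_at and 1447084_at turned to -0.19 and -0.07. At each of them this was the 1 sign change among 35 settings. With the ratio and the block together, both differences stayed positive.

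Nfatc3, an NFAT member expressed through T cell development, was bright at both of its probe sets. At 1419976_s_at the values were 10.45, 9.96, 10.23 and 10.24 (WT), 10.37, 10.28 and 10.17 (he) and 10.42, 10.42 and 10.45 (me). The me arrays lay close together above all he arrays and inside the WT range, which runs from WT 2 up to WT 1. Only WT 1, at 10.455, lay above me arrays, just over me 3 at 10.454. Leaving out WT 1 gave a me minus WT difference of 0.29, and leaving out WT 2 gave 0.13. Me minus WT was 0.21 ± 0.11 (log2, SE; limma adjusted p = 1), and 0.05 with the Gapdh ratio as a covariate. At 1452497_a_at the values were 9.03, 8.77, 9.73 and 9.60 (WT), 9.06, 9.78 and 9.86 (he) and 8.98, 9.99 and 9.21 (me). Set B was higher there by 0.78, and me minus WT was 0.11 ± 0.33 without the block and 0.25 ± 0.08 with it (limma adjusted p = 0.989).

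Nfatc2, the NFAT member present in resting T cells, was brightest at 1 of its 6 probe sets, 1439205_at. There the values were 9.66, 9.82, 9.69 and 9.78 (WT), 9.51, 9.64 and 9.57 (he) and 9.44, 9.67 and 9.76 (me). All he arrays lay just below all WT arrays, and me overlapped both. The he minus WT difference was -0.17 ± 0.09 (log2, SE; limma adjusted p = 1), and me minus WT was -0.11 ± 0.09 (adjusted p = 1). Of the other 5 Nfatc2 probe sets, 2 lay below the median of all probe sets, and 1426032_at separated the array sets by 0.82. Over all 6, me minus WT ran from -0.11 to 0.00, and from -0.11 to 0.06 with the block.

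**Figure D3:**
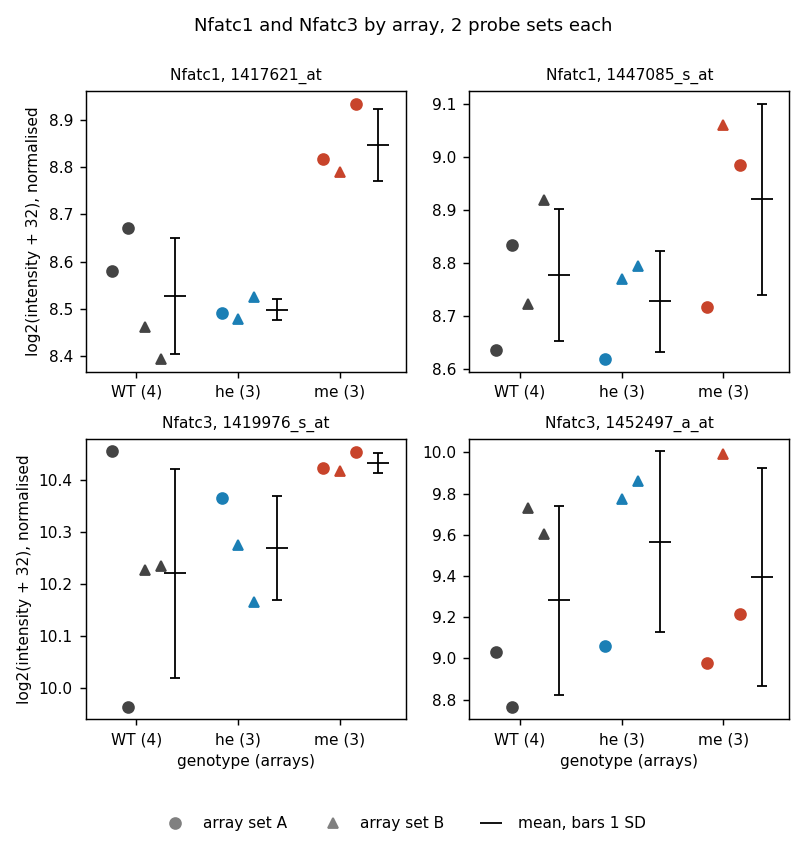
Nfatc1 and Nfatc3 by array at 2 probe sets each, as log2(intensity + 32) after quantile normalisation, for WT (4 arrays), he (3) and me (3). The 2 shown for Nfatc1 are those with its smallest p in me minus WT, and its brightest probe set is not shown. Circles are set A, triangles set B, and bars show the mean with 1 SD. At Nfatc1 1417621_at the me arrays lie from 8.79 to 8.93 above all others, and at Nfatc3 1452497_a_at the sets separate.

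Counted over the 27 probe sets, 0 passed an adjusted p of 0.05 in me against WT without the block, as did 0% of all probe sets. With array set as a block 1 passed, Tesc at 1418744_s_at, where 0.00666% of all probe sets passed, and since the rule used this contrast nothing is read from it. By unadjusted p, 3 of the 27 were under 0.05 without the block, against 0.622% of all, and 5 with it, against 4.29% of all. Without Tesc, 25 probe sets remain, of which 2 were under 0.05 without the block and 3 with it. Those 3 were Ppp3ca 1438478_a_at, Nfatc1 1417621_at and Nfatc3 1452497_a_at, and the lowest adjusted p among the 25 was 0.654. Groups did not overlap at 1 member that was higher in me (Nfatc1), against 0.804% of all probe sets, and at 2 that were lower (Tesc and Ppp3ca), against 0.835%.

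In he against WT, 0 of the 27 passed the adjusted test in either fit, as did 0% of all probe sets. By unadjusted p without the block 1 was under 0.05, the Ppp3ca probe set that was chosen for it, against 0.298% of all, and with the block 2 were, the other being Tesc, against 2.13%. Without Ppp3ca the counts were 0 and 1 of 24. Ppp3ca was the 1 member higher in he with no overlap, against 0.469% of all, and Nfatc2 the 1 that was lower, against 0.573%.

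In me against he the adjusted test called 0 of 27 in either fit, as it did 0% of all probe sets. Unadjusted, 4 were under 0.05 without the block, against 0.668% of all, and 6 with it, against 3.21%. Leaving out Tesc and Ppp3ca, 1 of 22 was under 0.05 without the block and 2 with it, all of them probe sets of Nfatc1. Groups did not overlap at 2 members that were higher in me (Nfatc1 and Nfatc3), against 1.62% of all, and at 3 that were lower (Tesc and 2 of Ppp3ca), against 1.10%. The me minus WT and me minus he comparisons share the me arrays, and he minus WT shares WT with the first.

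**Figure D4:**
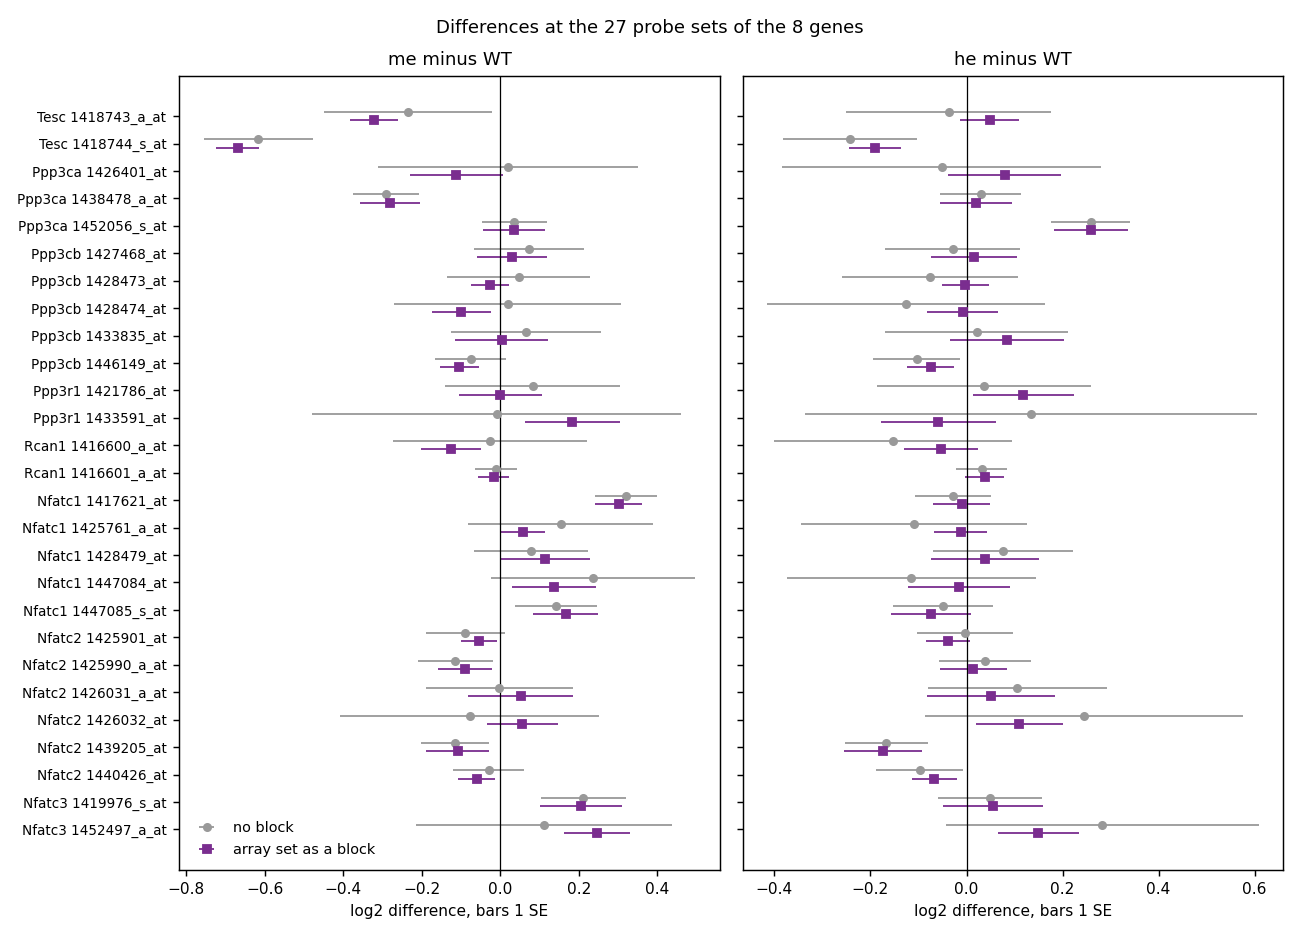
Differences at the 27 probe sets on the log2 scale, me minus WT (left) and he minus WT (right), without (circles) and with (squares) array set as a block. Bars are 1 SE of the fit, and the Tesc probe set 1418744_s_at has the difference farthest from 0 in me minus WT, at -0.67 with the block.

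The array sets separated the members more than genotype did, as they did most probe sets. The set difference was larger in size than the blocked me minus WT difference at 21 of the 27 member probe sets, and at 87.1% of all probe sets. Set B lay below set A with no overlap at 9 members and above it at 4, and the sets overlapped at the other 14. The share of all probe sets without overlap between sets was not counted, so nothing is read from these counts. The median size of the set difference was 0.27 over members and 0.24 over all probe sets. The median size of the blocked me minus WT difference was 0.10 over members and 0.05 over all. The sets were defined from these same values, so no test is given.

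**Figure D5:**
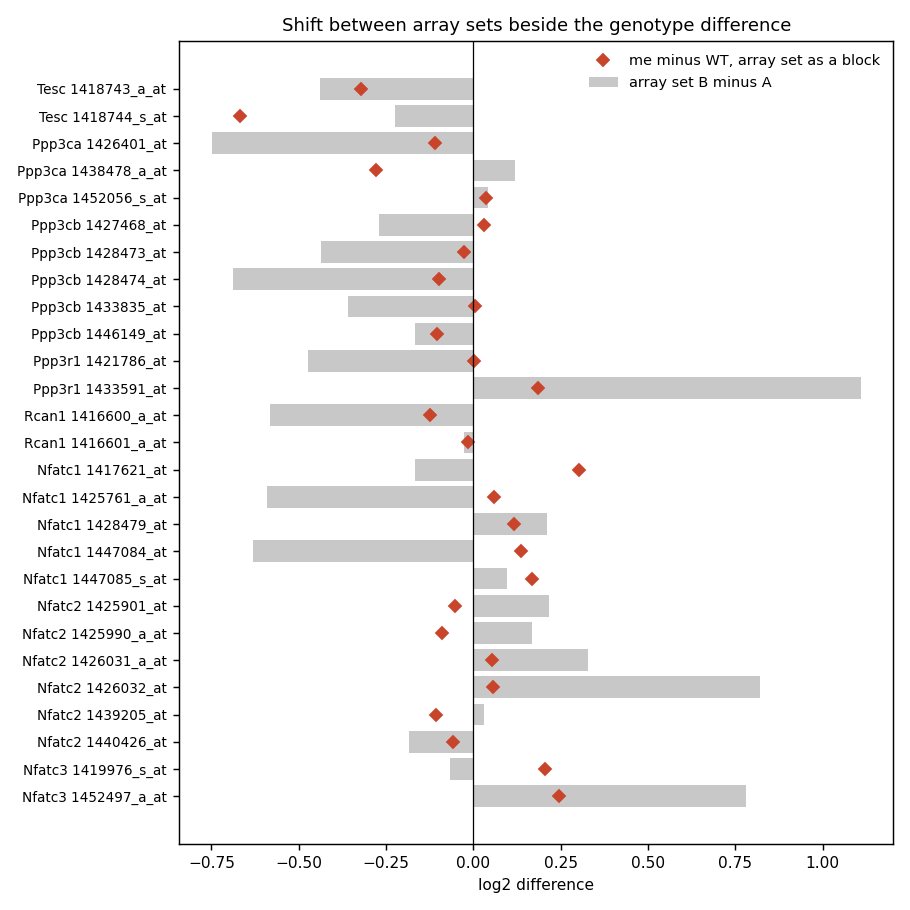
For each of the 27 probe sets, the set B minus set A difference (bars) beside the me minus WT difference with array set as a block (diamonds), both on the log2 scale. The bar at Ppp3r1 1433591_at reaches 1.11, and Tesc 1418744_s_at and Nfatc1 1417621_at are among the probe sets whose diamonds exceed their bars in size.

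The wider pathway was described by 4 gene lists holding 133 genes, of which 123 were measured, each at its brightest probe set. In limma's test adjusted over all probe sets 0 of the 123 passed in any comparison, with or without the block. By unadjusted p in me against WT, 4 of the 123 (3.25%) were under 0.05 without the block, beside 0.622% of all probe sets. With the block 12 (9.76%) were, beside 4.29%, 3 of them higher and 9 lower, and the lowest adjusted p was 0.604. All 18193 genes were also taken at their brightest probe set. Of them, 84 higher and 75 lower were under 0.05 without the block, and 382 and 536 with it. For he against WT the counts among the 123 were 0, beside 0.298% of all probe sets, and 3 (2.44%), beside 2.13%, a share near the background.

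Upstream, 23 of 28 genes of calcium entry and release were measured, 16 higher and 7 lower in me than in WT without a test passing, with a median difference of 0.04 (12 and 11, with a median of 0.02, with the block) beside 0.00 over all 18193 genes. Orai1, the pore of the store-operated calcium channel, had me minus WT of 0.17 ± 0.15 (log2, SE), and 0.22 ± 0.09 with the block. Its values were 8.84, 8.95, 9.27 and 9.30 (WT), 8.83, 9.17 and 9.11 (he) and 9.004, 9.40 and 9.37 (me). Set B was again the higher in WT and he. Itpkb, a kinase of the calcium-releasing messenger inositol trisphosphate, was at 0.19 ± 0.19, the endoplasmic calcium channel Ryr3 at -0.08 ± 0.07. Between he and WT, the list's smallest p-values belonged to the kinase Itpka at -0.13 ± 0.08, the calcium pump Atp2b1 at 0.19 ± 0.14 and the channel subunit Orai3 at -0.20 ± 0.15, none of which passed.

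Among calcineurin regulators and partners 21 of 25 were measured, 11 higher and 10 lower in me than in WT, with a median of 0.00 (8 and 13, with a median of -0.03, with the block). Those with the smallest p were Akap1, a scaffold, at -0.07 ± 0.08 (log2, SE), the transcription factor Mef2d at 0.17 ± 0.20 and Rcan3, a relative of Rcan1, at -0.09 ± 0.16. The he arrays against WT split the list into 10 higher and 11 lower, and Cib1, a calcium-binding relative of calcineurin B, was at -0.19 ± 0.16. No member of this list passed.

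All 32 genes of NFAT kinases, partners and other NFAT were measured, 17 higher and 15 lower in me than in WT, with a median of 0.01 (19 and 13, with a median of 0.04, with the block). With the block, 3 of them had an unadjusted limma p under 0.05, all lower in me. Kpnb1, the importin beta that carries proteins into the nucleus, was the lowest by p: its values were 10.75, 10.96, 10.48 and 10.64 (WT), 10.59, 10.37 and 10.48 (he) and 10.46, 10.18 and 10.52 (me). The me and he arrays lay mostly below WT, and me 3 overlapped with WT 3. Me minus WT was -0.32 ± 0.13 (log2, SE; limma adjusted p = 1), and -0.37 ± 0.07 with the block (adjusted p = 0.604).

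Fos and Fosb, subunits of the NFAT partner AP-1, had the next smallest p in this list and did not pass. Fos read 12.67, 12.43, 12.80 and 12.52 (WT), 12.79, 12.69 and 12.41 (he) and 12.48, 12.22 and 12.33 (me), and only me 1 overlapped with WT. Its me minus WT difference was -0.26 ± 0.12, and that of Fosb was -0.21 ± 0.11 (limma adjusted p = 1 for each). Between he and WT, Gsk3b, a kinase that returns NFAT to the cytoplasm, was at 0.16 ± 0.14 and the import receptor Tnpo3 at -0.17 ± 0.18.

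Of the NFAT target genes of T cells 47 of 48 were measured, 22 higher and 25 lower in me than in WT, with a median of -0.04 (23 and 24, with a median of -0.01, with the block). Slc2a3, a glucose transporter, was 10.89, 10.49, 10.47 and 10.50 (WT), 10.80, 10.60 and 10.31 (he) and 10.93, 10.98 and 11.06 (me). All me arrays lay above all others, me 1 just above WT 1, and me minus WT was 0.40 ± 0.14 (log2, SE; limma adjusted p = 1), or 0.19 when the Gapdh ratio was a covariate. The cytokine Csf2 went the other way, at 7.75, 7.98, 8.10 and 8.17 (WT), 7.95, 7.75 and 8.02 (he) and 7.63, 7.78 and 7.61 (me). Its groups overlapped at me 2 and its difference was -0.33 ± 0.11 (adjusted p = 1). Il4, dim at 7.37 to 7.63 in WT and 7.22 to 7.29 in me, did not overlap between these groups, with a difference of -0.22 ± 0.09 (adjusted p = 1).

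In he against WT the target list split 18 higher and 29 lower with a median of -0.05, beside 8533 higher and 9660 lower and a median of -0.01 over all genes. The chemokine Xcl1 was at -0.16 ± 0.08, the ligand Tnfsf11 at -0.43 ± 0.28 and the cytokine Il21 at -0.25 ± 0.17 (log2, SE), each with an adjusted p of 1. The calcium list split 11 and 12 and the kinase list 13 and 19 in this comparison, with medians of -0.04 and -0.02.

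The genes whose pattern over the 10 arrays was most like that of Tesc at 1418744_s_at, after set means were removed, were Socs2 (r = 0.979), Snx5 (0.972), Ptpn6 (0.948), Psmc4 (0.948) and Vps13b (0.944). Without removing set means Socs2 alone of these was among the nearest 5, at r = 0.923. For Ppp3ca at 1452056_s_at they were Arhgef6 (r = 0.944), Hspa4l (0.919), Dnajc14 (0.915), Serinc3 (0.903) and Rtn4 (0.902), of which Rtn4 alone stayed among the nearest 5 without that step. These are the highest of about 18810 probe sets compared over arrays that share genotypes, and they describe likeness only.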

How the data were processed

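Expression was measured on 10 Affymetrix arrays (4 WT, 3 he, 3 me). The authors deposited 1 intensity per probe set and array on a linear scale; how probes were summarised, corrected and scaled is not given in the sources available here. Per the labels, RNA was amplified from 20 ng of total RNA, which can shorten transcripts and favour probe sets near the 3′ end.

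Intensities were transformed as log2(intensity + 32) and quantile normalised, and 64 controls of 45101 probe sets were then left out. The array annotation names 1 gene for 34945 of the 45037 tested probe sets, several for 932 and none for 9160. All 3 comparisons were fitted with limma (version 3.58.1, R 4.3.3) to the 10 arrays, leaving 7 residual degrees of freedom (6 with array set as a block). P-values were adjusted by Benjamini-Hochberg over the 45037 probe sets, with calls at 0.05. The number of arrays limits the precision.

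The members and gene lists were chosen with earlier results of these data known. The genes named are all members, Ptpn6, Chp1, Chp2, up to 3 genes per pathway list with the smallest p in me or he against WT, and the 5 nearest in pattern to Tesc and to Ppp3ca. A further gene of the rule is not reported here, and Rnf128, Ctla4, Il13 and Ifng were added after their values were seen. Likeness was taken over probe sets not below the median. Alternatives were other scalings, pseudocounts of 1 and 128, a filter on low values, blocks for replicate number, array set and sex, fits on 2 groups alone, a robust prior, array weights, a threshold of 0.1 and leaving out each array. The Gapdh ratio as a covariate was added after seeing the data.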

Additional observations from a re-analysis of the deposited data

How the results depend on the processing

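Without array set as a block, 0 member probe sets and 0 pathway genes passed in any comparison under the other scalings, both pseudocounts, the filter on low values, 2-group fits, the robust prior, the threshold of 0.1, the Gapdh covariate and each left-out array. With array set as a block, 1 member was counted in me against WT, Tesc at 1418744_s_at, and 0 with me 3 in the other set or with set and sex as blocks. Its difference there was -0.57 and -0.67. Tesc was chosen for this contrast, so nothing is read from whether it is counted. Leaving out 1 array in the blocked or unblocked fits gave 0 to 1 members in me against WT: with the block, Tesc was counted without he 2 or he 3 and not without any of the other 8 arrays. With array weights, me against he called 20 members and 81 pathway genes, beside 27308 of all probe sets. That fit gave weights of 26.6 to me 3 and 7.1 to he 2, against 0.268 to 0.827 for the others, and stopped before it converged. With the replicate number as a block 0 members and 0 pathway genes passed in each comparison. Deviations of same-numbered arrays correlated at 0.9 to 0.94 for number 1, -0.87 to 0.69 for number 2 and -0.51 to 0.73 for number 3, so the numbers do not pair the arrays. Of 2820 member differences under alternatives, 2344 kept their sign and 476 changed it, 6 of these where the reported difference was at least 0.2 in size. The threshold of 0.1, the robust prior, the 2-group fits and the filter on low values cannot move a difference. Without the block, neither can leaving out an array of the group not compared. The number of kept signs therefore overstates the stability. Low signal limits the 5 member probe sets below the median of all probe sets.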

Other observations

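Further NFAT targets with an unadjusted p under 0.05 in me against WT, once array set was a block, were singled out here after their values were seen. Rnf128, a ubiquitin ligase tied to T cell anergy, had me minus WT of -0.61 ± 0.15 (log2, SE; limma with Benjamini-Hochberg adjustment, adjusted p = 0.841), from means of 8.46 ± 0.30 (SD, n = 4) in WT and 7.96 ± 0.46 (SD, n = 3) in me. Within sets it was -0.57 in A and -0.63 in B. Ctla4, an inhibitory receptor carried by regulatory T cells, was at 0.58 ± 0.25 with the block (adjusted p = 0.989), from means of 10.99 ± 0.56 in WT and 11.67 ± 0.54 in me. The cytokine Il13 was at -0.27 ± 0.06 (adjusted p = 0.784) and Ifng at -0.20 ± 0.09 (adjusted p = 0.989). The NFAT target list as a whole split 23 higher and 24 lower with the block.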
